A study of Mus musculus with 9 samples.

Results

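Across the 9 libraries of cultured mouse peritubular myoid cells, 38 mitotic cell-cycle genes went up and down together, by up to 7.1-fold for a given gene, and this variation lay mostly between replicates of the same group. The mean log2 level of the 38 genes was lower 1 h and 6 h after heat than in control cells, but the groups overlapped for every gene and 0 of the 38 passed the test in any comparison. The 38 genes were chosen by name as mitotic cyclins, kinases, kinesin motors, kinetochore proteins and their partners, out of 20717 genes listed in the deposited table, of which 17559 had values. Values were present for 38 of 38.

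Peritubular myoid (PTM) cells are the flat contractile cells that wrap the seminiferous tubules of the testis. The study used primary PTM cells of the C57BL/6J strain, grown in medium with 10% fetal bovine serum, and had 3 groups of 3 libraries. Control cells were untreated. The other dishes spent 30 min at 42 °C in a bath, went back to culture at 37 °C and were harvested after 1 h or after 6 h. The labels number the replicates without saying whether they were separate animals, isolations or dishes, so the p-values rest on differences between libraries that may be only technical. Isolates from testis can carry other cell types, and the labels state no purity.

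Mitotic genes are transcribed late in the cell cycle, from G2 into M phase, and the mRNAs of a dividing population are therefore found together. In G0 and early G1 they are held down by the DREAM complex, in which the MuvB core is joined by a p130 or p107 pocket protein and E2F4. In dividing cells the MuvB core works instead with B-Myb and FOXM1, it contacts a short promoter element called the cell cycle genes homology region, and the trimeric factor NF-Y binds nearby CCAAT boxes. In the adult testis PTM cells divide rarely, while isolated PTM cells divide in culture with serum.

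Promoters of 5 of the genes are shown because the 38 genes vary together in these libraries and these motifs are what such promoters are known to share. Each is 250 bases before and 50 bases after the transcription start, 5′ to 3′ on the strand of the gene, from RefSeq on GRCm38.p6. Capitals mark TTTGAA (the cell cycle genes homology region), TTTAAA (a variant of it, searched for after the values were seen) and CCAAT, each on either strand, so that ATTGG is CCAAT read on the other strand. TTTAAA reads the same on both strands, and no base is shared by 2 motifs in the windows shown. Ccnb1 (cyclin B1) is at chr13:100786437-100786736 (minus strand), Ccnb2 (cyclin B2) at chr9:70421505-70421804 (minus strand), Cdk1 (their kinase) at chr10:69352863-69353162 (minus strand), Cdc20 (an activator of the anaphase-promoting complex) at chr4:118437294-118437593 (minus strand) and Plk1 (polo-like kinase 1) at chr7:122159185-122159484 (plus strand).
Ccnb1: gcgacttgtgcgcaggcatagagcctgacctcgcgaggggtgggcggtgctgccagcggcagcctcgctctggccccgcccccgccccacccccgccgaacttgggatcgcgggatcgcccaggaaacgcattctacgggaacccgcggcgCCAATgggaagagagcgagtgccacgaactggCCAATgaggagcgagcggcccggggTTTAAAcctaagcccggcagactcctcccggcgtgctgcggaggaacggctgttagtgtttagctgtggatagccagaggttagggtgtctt
Ccnb2: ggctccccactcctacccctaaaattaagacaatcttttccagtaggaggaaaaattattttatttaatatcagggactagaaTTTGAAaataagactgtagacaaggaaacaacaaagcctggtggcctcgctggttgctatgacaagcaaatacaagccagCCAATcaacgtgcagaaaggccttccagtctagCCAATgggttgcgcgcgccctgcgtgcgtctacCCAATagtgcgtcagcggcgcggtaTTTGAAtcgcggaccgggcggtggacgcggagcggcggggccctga
Cdk1: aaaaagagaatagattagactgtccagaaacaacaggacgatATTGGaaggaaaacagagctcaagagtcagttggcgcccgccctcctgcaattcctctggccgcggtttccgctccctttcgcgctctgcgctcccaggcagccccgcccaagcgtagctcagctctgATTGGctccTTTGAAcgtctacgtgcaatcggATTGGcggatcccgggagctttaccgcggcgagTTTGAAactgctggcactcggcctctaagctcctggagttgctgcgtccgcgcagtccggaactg
Cdc20: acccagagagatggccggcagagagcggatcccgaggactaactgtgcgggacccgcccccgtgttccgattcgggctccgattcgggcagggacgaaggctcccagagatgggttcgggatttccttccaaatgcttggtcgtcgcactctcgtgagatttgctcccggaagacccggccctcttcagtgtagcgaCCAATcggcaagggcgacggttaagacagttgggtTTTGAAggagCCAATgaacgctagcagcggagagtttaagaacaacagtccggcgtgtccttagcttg
Plk1: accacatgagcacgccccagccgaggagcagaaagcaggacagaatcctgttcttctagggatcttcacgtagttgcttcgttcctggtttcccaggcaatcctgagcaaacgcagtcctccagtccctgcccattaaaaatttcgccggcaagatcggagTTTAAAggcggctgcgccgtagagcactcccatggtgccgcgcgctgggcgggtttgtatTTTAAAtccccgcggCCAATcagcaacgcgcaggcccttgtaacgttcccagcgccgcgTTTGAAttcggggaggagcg

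Ccnb2 has 3 CCAAT boxes upstream of its start, beginning at positions -87, -54 and -21, and TTTGAA at position 5, counted so that the transcription start is position 1. Another TTTGAA of Ccnb2 begins at -167. Cdk1 has CCAAT on the opposite strand at -208, -80 and -48, with TTTGAA at -71 and -15. Cdc20 has CCAAT at -53 and -8, on both sides of TTTGAA at -18. Ccnb1 has CCAAT at -99 and -67 and no TTTGAA in this window, but TTTAAA at -42. Plk1 has a CCAAT at -14, TTTGAA at 31 and TTTAAA at -89 and -29.

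Promoter sequences were present for 33 of the 38 genes, all but Kif20a, Dlgap5, Tpx2, Ccna2 and Aurkb. TTTGAA was found in 25 of the 33 windows, 75.8%, against 18.1% of the windows of all 27025 genes in the same table. At least 1 CCAAT was found in 26, 78.8%, against 37.9% of all windows, and at least 2 in 19, 57.6%, against 12.2%. Both motifs were found in 22, 66.7%, against 7.12%, and TTTGAA or TTTAAA in 28, 84.8%, against 27.8%. The places of the matches were counted in these 33 windows only, not over all genes. Of the 63 CCAAT matches, 42 began within 100 bases upstream of the start, and of the 31 TTTGAA matches 18 began within the 50 bases downstream of it. A match is a stretch of letters and not evidence that a factor was bound in these cells.

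Depth was nearly equal, at an estimated 19000000 to 19800000 reads per library, and the fewest reads estimated for any of the 38 genes in any library was 91, for Cdca3. Levels are given in FPKM, fragments scaled to transcript length and library size, which are the authors' deposited values. Markers of the labelled cell type were high: Tagln had 1602 to 2231 FPKM and Acta2 had 992 to 1627 FPKM over the 9 libraries, and all 8 myoid and smooth muscle markers listed were detected. Markers of other cells were also present. Cyp11a1 and Insl3, of Leydig cells, had 288 to 820 FPKM and 181 to 1607 FPKM, and Clu, of Sertoli cells, had 2700 FPKM in control replicate 3 against 175 to 437 FPKM in the other 8 libraries. Other markers of these cells stayed below 1 FPKM in every library. They were 3 of 7 Leydig markers (Cyp17a1, Hsd17b3 and Lhcgr) and 2 of 8 Sertoli markers (Amh and Fshr). Of 10 germ-cell markers, 6, among them Dazl, Stra8 and Dmc1, stayed below 1 FPKM in every library, while Uchl1 had 5.92 to 30.7 FPKM and Ddx4 0.08 to 7.14 FPKM. In bulk RNA, fewer dividing cells and less RNA per dividing cell cannot be told apart.

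The geometric mean level of the 38 genes was 15.7, 21.9 and 7.58 FPKM in control replicates 1, 2 and 3, 11, 14.7 and 8.25 FPKM in the 1 h replicates, and 5.11, 12.9 and 14.8 FPKM in the 6 h replicates. Control replicate 2 was the highest of the 9 libraries for 38 of 38 genes. The 6 h replicate 1 was the lowest for 37, and the 1 h replicate 3 was the lowest for the remaining gene, Aurka. Replicates also kept the same order within a group: replicate 2 was highest and replicate 3 lowest for 38 of 38 genes in control cells and again for 38 of 38 at 1 h. At 6 h the order was 3, 2, 1 from high to low for 32 genes and 2, 3, 1 for 6.

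**Figure D1:**
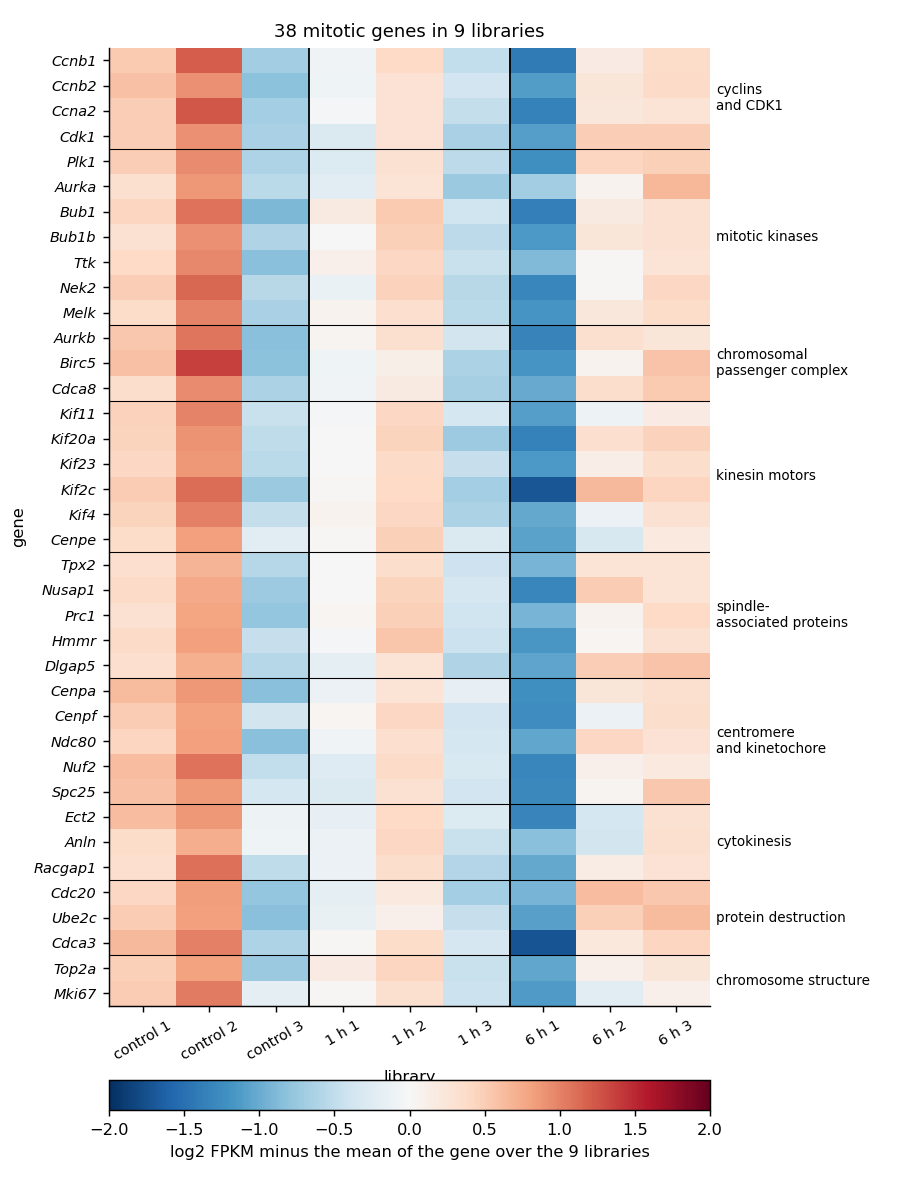
Log2 FPKM of each of the 38 genes minus its own mean over the 9 libraries, with genes in rows by role and libraries in columns by group (control, 1 h and 6 h, replicates 1 to 3). Control 2 is the highest column in every row, and 6 h replicate 1 is the lowest in 37 of 38 rows.

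Spread between replicates was large against the differences between groups. The highest replicate exceeded the lowest by a median over the 38 genes of 2.95-fold in control cells (from 1.77 for Anln to 4.56 for Birc5), 1.79-fold at 1 h (from 1.36 for Cenpa to 2.27 for Kif20a) and 2.92-fold at 6 h (from 2.23 for Anln to 5.13 for Kif2c). On the log2 scale the median residual SD of the 38 genes was 0.634, against 0.261 over the 11460 genes tested. It ran from 0.424 for Cenpe to 0.842 for Kif2c. The group geometric means were 13.8 FPKM in control cells, 11 FPKM at 1 h and 9.89 FPKM at 6 h, while the SD between replicates of the mean log2 level was 0.78, 0.42 and 0.83 in the same order of groups.

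Genes were tested with limma on log2(FPKM + 1), keeping those that reached 1 FPKM in 3 or more of the 9 libraries, and a gene was called at a Benjamini-Hochberg adjusted p below 0.05 over all 11460 tested. All 38 genes passed that filter. At 1 h after heat against control, 0 of 38 were called, where 0.157% of all genes were, all of them higher. The log2 change was negative for 38 of 38 with a median of -0.32, beside a median of -0.17 and 76.2% negative over all genes. Changes ran from -0.56 for Birc5 to -0.07 for Prc1 with limma adjusted p of 0.603 to 0.943. The libraries of the groups overlapped for 38 of 38, while 25.9% of all genes did not overlap. A reading by same-numbered libraries was added after the values were seen. The 1 h library was below the control of its number for 38 of 38 in replicates 1 and 2. In replicate 3 it was below for 13 of 38. Over all genes it was below for 67%, 68.3% and 68.1% in replicates 1, 2 and 3. The 13 were lower in all 3 pairs, as were 38.2% of all genes. These 13 were Aurka, Nek2, Cdca8, Kif20a, Kif4, Cenpe, Dlgap5, Cenpf, Spc25, Ect2, Anln, Racgap1 and Mki67. The number of negative changes was 33 of 38 under median-of-ratios scaling, which brought the median of all genes to -0.01 and that of the 38 to -0.16, and 33 of 38 after quantile normalization. Without control replicate 2 the median was -0.01 with 21 of 38 negative, and without control replicate 3 it was -0.72. Without 1 h replicate 2 it was -0.49, and without 1 h replicate 3 it was -0.14.

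At 6 h after heat against control, 0 of 38 genes were called, and 0% of all genes were. Limma's lowest adjusted p over all genes was 0.521, and 529 genes, 1 of the 38 among them (Ect2), had an unadjusted p below 0.05. The log2 change was negative for 38 of 38 with a median of -0.42, beside a median of -0.06 and 60.1% negative over all genes. It ran from -0.81 for Ect2 to -0.09 for Cdc20, with limma adjusted p of 0.877 to 0.986. Groups overlapped for 38 of 38 genes, while 7.22% of all genes did not overlap. The median was -0.01 with 21 of 38 negative without 6 h replicate 1, -0.09 without control replicate 2, -0.81 without control replicate 3 and -0.66 without 6 h replicate 3.

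At 6 h against 1 h after heat, 0 of 38 were called beside 0.279% of all genes. The change was negative for 30 and positive for 8, with a median of -0.16, beside a median of 0.09 and 37.1% negative over all genes. It ran from -0.37 for Ect2 to 0.29 for Cdc20 (limma adjusted p of 0.675 to 0.99). Again the groups overlapped for 38 of 38, while 20.2% of all genes did not. Without 6 h replicate 1 the median was 0.28 and 3 of 38 were negative, and without 1 h replicate 2 it was 0.03 with 16 negative. Without 1 h replicate 3, 6 h replicate 2 or 6 h replicate 3 it was -0.35, -0.29 or -0.41. The comparisons share libraries, so their values for a gene are not independent of each other.

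**Figure D2:**
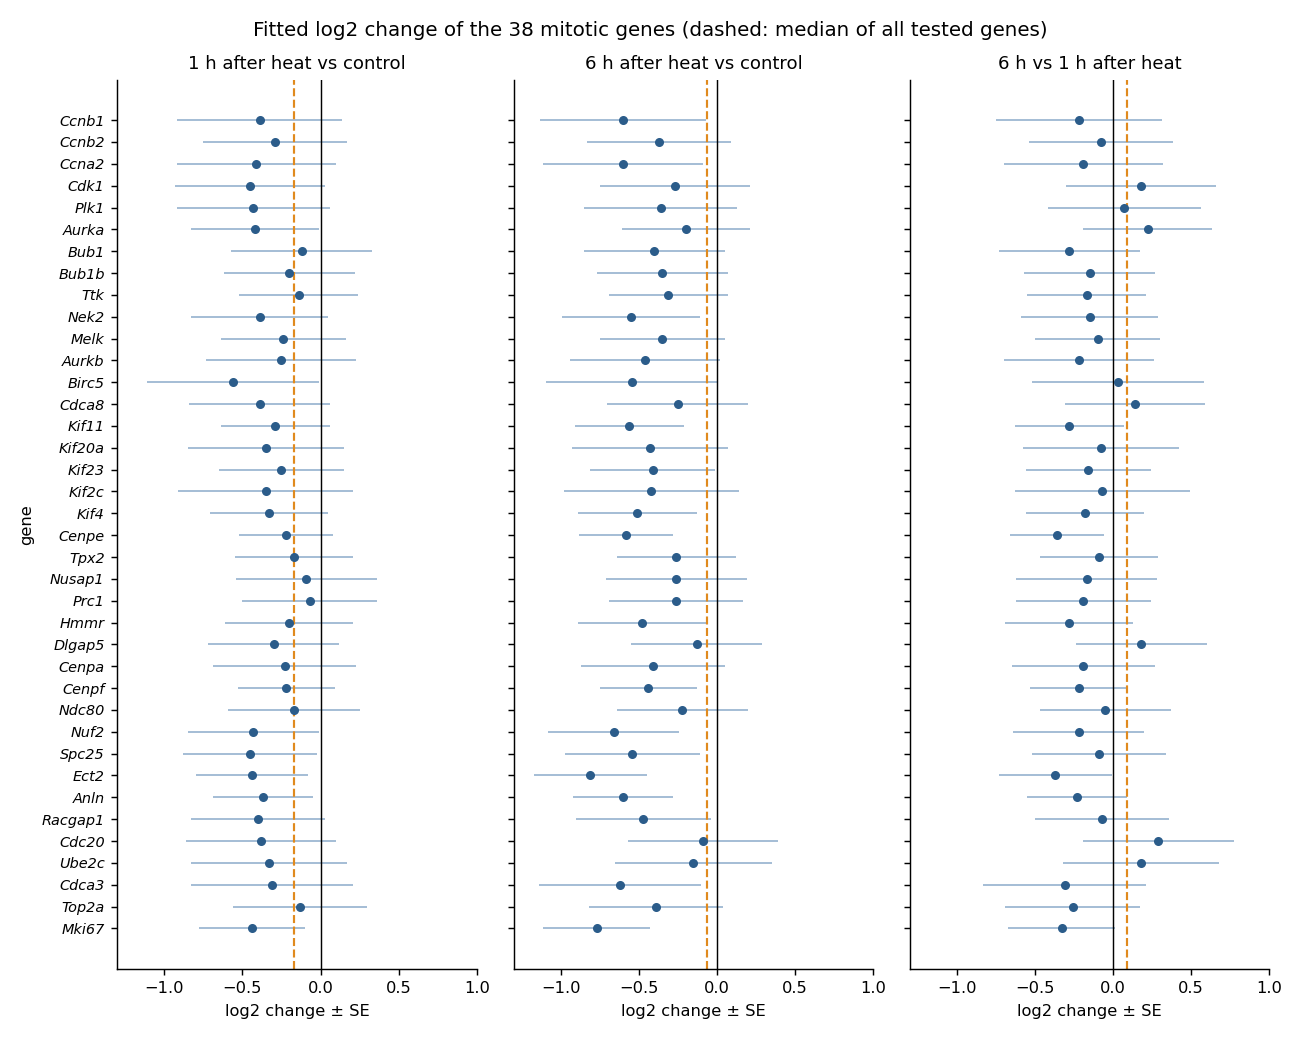
Fitted log2 change ± SE of each of the 38 genes (rows, in the order of their roles) in the 3 comparisons, from limma on log2(FPKM + 1), with 0 as a solid line and the median of all tested genes dashed. All points lie left of 0 in the comparisons with control, from -0.81 to -0.07, and SEs run from 0.30 to 0.56.

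The authors' deposited table gives another count for the same values, from DEGseq with 1 q-value per gene and comparison. Going by the authors' deposited table, 38 of 38 genes were lower at 1 h than in control at a q-value of at most 0.001, as were 44% of all genes with a q-value. At 6 h against control it lists 36 of 38 as lower, beside 28.6% of all genes, and at 6 h against 1 h it lists 11 as lower, beside 15.2%, and 8 as higher, beside 33.5%. None of these reached 2-fold: the authors' deposited table has log2 fold changes of -0.79 to -0.16 at 1 h, -0.86 to -0.08 at 6 h and -0.41 to 0.41 at 6 h against 1 h. How the replicates entered that test is not given in the sources used here.

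Cyclins B and A bind CDK1 and carry cells into mitosis. Ccnb1 (chromosome 13, 100778739 to 100786486, minus strand on mm10, as are all positions of genes here) had 31.8, 51 and 13.6 FPKM in control replicates 1, 2 and 3, 21.1, 29.1 and 15.7 FPKM at 1 h, and 8.3, 24.8 and 28.6 FPKM at 6 h. Its replicates overlapped fully between groups, control replicate 3 being below every 1 h replicate. Its mean was 32.1 ± 18.7 FPKM in control cells, 22 ± 6.73 FPKM at 1 h and 20.6 ± 10.8 FPKM at 6 h (SD, n = 3 each). Fitted log2 changes of Ccnb1 were -0.39 ± 0.53 (SE) at 1 h and -0.60 ± 0.53 at 6 h (limma adjusted p of 0.743 and 0.88). Ccna2, cyclin A2, which also acts in S phase (chromosome 3, 36564865 to 36571996, minus strand), had 28.7, 48.4 and 12.9 FPKM in control cells, 20.2, 25.1 and 14.8 FPKM at 1 h, and 8.04, 24.1 and 24.7 FPKM at 6 h. The pattern over libraries matched that of Ccnb1, with control replicate 2 far above the rest. Over the role, which also holds Ccnb2 and Cdk1, changes ran from -0.45 to -0.29 at 1 h and from -0.60 to -0.27 at 6 h.

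Among the 7 mitotic kinases, Plk1, which acts from centrosome maturation to cytokinesis (chromosome 7, 122159435 to 122169884, plus strand), had 30.6, 41.9 and 14.2 FPKM in control cells, 18, 26.9 and 15.1 FPKM at 1 h, and 9.32, 29.5 and 30.4 FPKM at 6 h. Its 6 h replicates 2 and 3 stood next to control replicate 1, and its 6 h replicate 1 was the lowest. Aurka, the centrosomal and spindle kinase Aurora A (chromosome 2, 172356190 to 172370570, minus strand), had 19.7, 28.7 and 10.8 FPKM in control cells, 13.5, 19 and 9.39 FPKM at 1 h, and 9.65, 16.4 and 24.9 FPKM at 6 h. It is the gene for which 1 h replicate 3, and not 6 h replicate 1, was lowest. The log2 change of Plk1 was -0.43 ± 0.49 at 1 h and -0.36 ± 0.49 at 6 h, and that of Aurka -0.42 ± 0.41 and -0.20 ± 0.41. The other kinases, Bub1, Bub1b and Ttk of the spindle checkpoint, Nek2 of centrosome separation and Melk, had means over the 9 libraries of 4.5 to 7.89 FPKM and log2 changes of -0.55 to -0.12 against control.

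**Figure D3:**
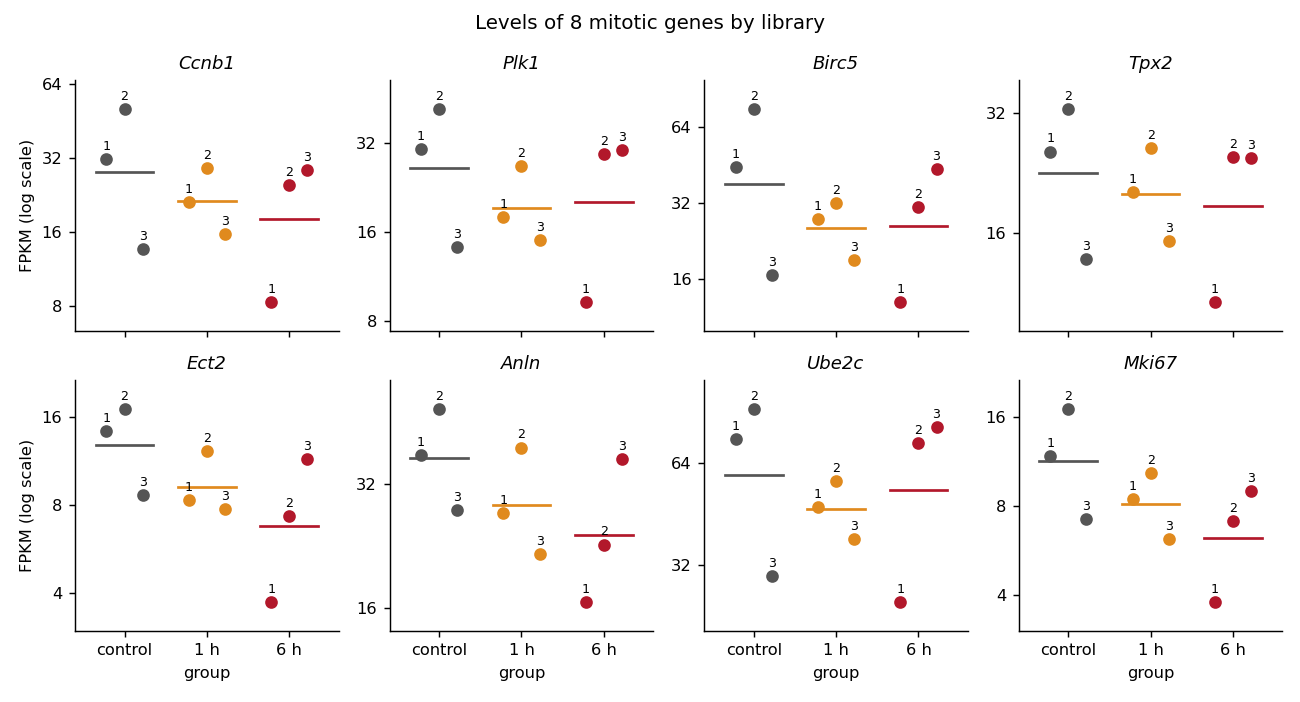
FPKM on a log scale for 8 genes in each library, with the replicate number over each point and a bar at the geometric mean of the group. For Ccnb1 the points run from 8.3 FPKM in 6 h replicate 1 to 51 FPKM in control replicate 2, and the groups overlap in every panel.

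The chromosomal passenger complex corrects the attachment of chromosomes to the spindle. Birc5, survivin (chromosome 11, 117849237 to 117855743, plus strand), had 44.4, 75.8 and 16.6 FPKM in control cells, 27.7, 32 and 19 FPKM at 1 h, and 13, 31 and 43.6 FPKM at 6 h. Control replicate 2 was 4.56 times control replicate 3, the widest gap between control replicates of any of the 38 genes. Birc5 had the most negative 1 h change, -0.56 ± 0.55 (limma adjusted p = 0.661), and -0.54 ± 0.55 at 6 h. Cdca8, borealin (chromosome 4, 124918465 to 124936917, minus strand), had 22.1, 33.4 and 11.2 FPKM in control cells, 16.5, 19.6 and 11 FPKM at 1 h, and 8.6, 22.1 and 24.8 FPKM at 6 h, and its changes were -0.39 ± 0.45 and -0.25 ± 0.45. Aurkb, the kinase of the complex, averaged 10.5 FPKM over the 9 libraries.

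Of the 6 kinesins, motors that move spindle microtubules and chromosomes, Kif20a, needed for cytokinesis, had 23.4, 32.3 and 12.2 FPKM in control cells, 17.3, 23.6 and 10.4 FPKM at 1 h, and 6.73, 21.7 and 23.8 FPKM at 6 h. Kif2c, a microtubule depolymerase at centromeres (chromosome 4, 117159633 to 117182624, minus strand), had 11.3, 17.2 and 4.73 FPKM in control cells, 8.03, 10.5 and 4.95 FPKM at 1 h, and 2.42, 12.4 and 10.7 FPKM at 6 h. Kif2c had the widest range of the 38, 7.1-fold from 6 h replicate 1 to control replicate 2, and its 6 h replicate 2 stood above control replicate 1. Kif11, Kif23, Kif4 and Cenpe averaged 5.04 to 7.77 FPKM. Changes over the 6 kinesins ran from -0.35 to -0.22 at 1 h and from -0.58 to -0.41 at 6 h.

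Spindle-associated proteins had the changes nearest to 0 of any role at 1 h, with a median over 5 genes of -0.17. Prc1, which bundles antiparallel microtubules of the central spindle (chromosome 7, 80294451 to 80316259, plus strand), had 32.7, 45.7 and 15.5 FPKM in control cells, 27.1, 36.9 and 20.1 FPKM at 1 h, and 13.9, 27.8 and 34.6 FPKM at 6 h. Its 1 h replicates lay within the range of the control replicates, and its log2 change at 1 h was -0.07 ± 0.43, which became 0.10 under median-of-ratios scaling. Tpx2, a spindle assembly factor that activates Aurora A (chromosome 2, 152847964 to 152895321, plus strand), had 25.6, 32.8 and 13.8 FPKM in control cells, 20.3, 26.1 and 15.3 FPKM at 1 h, and 10.8, 24.8 and 24.6 FPKM at 6 h. Its changes were -0.17 ± 0.38 at 1 h, or 0.00 under median-of-ratios scaling, and -0.26 ± 0.38 at 6 h. Nusap1, Hmmr and Dlgap5 averaged 9.11 to 13.3 FPKM.

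At the centromere and kinetochore, Spc25, a subunit of the NDC80 complex that binds microtubules (chromosome 2, 69193895 to 69206213, minus strand), had 21.8, 26.1 and 11.3 FPKM in control cells, 11.9, 18 and 11.1 FPKM at 1 h, and 5.92, 15 and 21 FPKM at 6 h. Cenpa, the histone H3 variant that marks centromeres (chromosome 5, 30666886 to 30674837, plus strand), had 19.1, 22.6 and 6.94 FPKM in control cells, 11.4, 14.9 and 11 FPKM at 1 h, and 5.28, 14.5 and 15.4 FPKM at 6 h. In both genes 6 h replicate 1 was lowest, and for Cenpa the 1 h replicates were the closest together of any of the 38 genes, 1.36-fold apart. Changes were -0.45 ± 0.43 at 1 h and -0.54 ± 0.43 at 6 h for Spc25, and -0.23 ± 0.46 and -0.41 ± 0.46 for Cenpa. Cenpf had the lowest level of the 38, 2.62 FPKM on average.

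Cytokinesis genes had the most negative median at 6 h of the 9 roles, -0.60 over 3 genes. Ect2, the exchange factor that activates RhoA at the division plane (chromosome 3, 27097222 to 27153878, minus strand), had 14.3, 17.1 and 8.68 FPKM in control cells, 8.31, 12.2 and 7.75 FPKM at 1 h, and 3.74, 7.33 and 11.5 FPKM at 6 h. Control replicates 1 and 2 were above every heated replicate, and control replicate 3 was above 1 h replicates 1 and 3 and 6 h replicates 1 and 2. Means were 13.4 ± 4.29 FPKM in control cells, 9.43 ± 2.45 FPKM at 1 h and 7.54 ± 3.9 FPKM at 6 h (SD, n = 3 each). Its log2 change was -0.81 ± 0.36 at 6 h (limma adjusted p = 0.877) and -0.44 ± 0.36 at 1 h. Anln, anillin, the scaffold of the contractile ring (chromosome 9, 22331214 to 22389206, minus strand), had 37.8, 48.9 and 27.7 FPKM in control cells, 27.2, 39.3 and 21.6 FPKM at 1 h, and 16.6, 22.8 and 36.9 FPKM at 6 h. Anln varied least of the 38, with a 2.95-fold range over the libraries, and its change at 6 h was -0.60 ± 0.32 (limma adjusted p = 0.877). Racgap1, of the centralspindlin complex (chromosome 15, 99620192 to 99651656, minus strand), had 18.9, 32.2 and 10.6 FPKM in control cells, 13.9, 19.2 and 10 FPKM at 1 h, and 7.42, 16.6 and 18.3 FPKM at 6 h, and a change at 6 h of -0.47 ± 0.43.

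The protein destruction role held the highest transcript of the 38. Ube2c, the ubiquitin-conjugating enzyme of the anaphase-promoting complex (chromosome 2, 164769929 to 164772902, plus strand), had 75.5, 93.1 and 29.6 FPKM in control cells, 47.5, 56.6 and 38.2 FPKM at 1 h, and 24.8, 73.8 and 82.2 FPKM at 6 h. Cdc20 (chromosome 4, 118432901 to 118437343, minus strand) had 33.9, 45.6 and 14.8 FPKM in control cells, 22.2, 29.1 and 15.9 FPKM at 1 h, and 13.3, 38.9 and 36.8 FPKM at 6 h. In both genes 6 h replicates 2 and 3 were above all 1 h replicates, while 6 h replicate 1 was the lowest library. Their log2 changes at 6 h against control were -0.15 ± 0.50 for Ube2c and -0.09 ± 0.48 for Cdc20, and 0.18 ± 0.50 and 0.29 ± 0.48 against 1 h. Cdca3, shown in Xenopus to trigger the destruction of Wee1, averaged 12 FPKM and had -0.62 ± 0.52 at 6 h against control.

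Chromosome structure was represented by Top2a and Mki67. Top2a, topoisomerase II alpha, which untangles sister chromatids (chromosome 11, 98992947 to 99024189, minus strand), had 29.4, 36.9 and 12.6 FPKM in control cells, 23.7, 28.4 and 15.6 FPKM at 1 h, and 10.3, 22.8 and 25 FPKM at 6 h. Mki67, the Ki-67 protein that coats mitotic chromosomes and is used to mark dividing cells (chromosome 7, 135689788 to 135716379, minus strand), had 11.8, 17.1 and 7.23 FPKM in control cells, 8.43, 10.3 and 6.2 FPKM at 1 h, and 3.79, 7.13 and 8.96 FPKM at 6 h. Its 6 h replicates 1 and 2 were below every control replicate, and 6 h replicate 3 was above control replicate 3 only. It averaged 12 ± 4.92 FPKM in control cells, 8.32 ± 2.07 FPKM at 1 h and 6.63 ± 2.62 FPKM at 6 h (SD, n = 3 each). Log2 changes of Mki67 were -0.77 ± 0.34 at 6 h (limma adjusted p = 0.877) and -0.44 ± 0.34 at 1 h (limma adjusted p = 0.603), and those of Top2a were -0.39 ± 0.43 and -0.13 ± 0.43. Top2a at 1 h was 0.04 under both median-of-ratios scaling and quantile normalization.

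Because the 38 genes rose and fell together between libraries, their balance was also compared within libraries, a step chosen after the values were seen and given as a description. Each gene's log2 FPKM was taken minus the mean log2 FPKM of the 38 in the same library. At 6 h against control the difference in this relative level ran from -0.44 for Ect2 to 0.39 for Cdc20. On this scale the libraries of the groups did not overlap for 8 of the 38: Cdc20, Dlgap5, Ube2c, Prc1, Cdca8 and Cdk1 were higher at 6 h, and Mki67 and Nuf2, an NDC80 complex subunit, were lower. Over all genes, read as log2(FPKM + 1) minus the same mean and so on a slightly different scale, 1.01% did not overlap. That low share is no yardstick for the 38. Subtracting their mean removes the spread that the 38 share and adds it to genes that do not follow them. Before the subtraction, 7.22% of all genes did not overlap at 6 h against control, 20.2% at 6 h against 1 h and 25.9% at 1 h against control. The shares of all genes that follow were taken in the same way and have the same limit. The counts of the 38 on this scale are therefore a description only. At 6 h against 1 h, Cdc20, Ube2c, Dlgap5, Cdk1 and Cdca8 were higher and Bub1, Cenpf and Hmmr lower without overlap, beside 1.84% of all genes. At 1 h against control, Prc1, Nusap1, Top2a, Ttk and Ndc80 were higher and Cdk1 and Plk1 lower, beside 2.79%, with differences of -0.25 to 0.26 over the 38.

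Relative to the mean of the 38, Cdc20 stood at 1.11, 1.06 and 0.97 log2 units in control replicates 1, 2 and 3, at 1.01, 0.99 and 0.94 at 1 h, and at 1.38, 1.60 and 1.32 at 6 h. Mki67 stood at -0.41, -0.36 and -0.07 in control cells, at -0.38, -0.51 and -0.41 at 1 h, and at -0.43, -0.85 and -0.72 at 6 h. The ratio of Cdc20 to Mki67 in FPKM was 2.87, 2.67 and 2.05 in control cells, 2.63, 2.81 and 2.56 at 1 h, and 3.51, 5.45 and 4.11 at 6 h. Cdc20 was thus at its highest relative to Mki67 in all 3 of the 6 h libraries, including replicate 1 in which both were low. The ratio of Cdc20 to Nuf2 was 2.66, 2.58 and 2.49 in control cells, 3.2, 2.69 and 2.36 at 1 h, and 3.94, 4.37 and 3.86 at 6 h. The ratio of Ccnb1 to Mki67 overlapped between groups, at 2.69, 2.98 and 1.88 in control cells, 2.51, 2.82 and 2.54 at 1 h, and 2.19, 3.48 and 3.19 at 6 h. The pairs with Cdc20, and the pair of Ube2c and Mki67 shown in the figure, were picked for their values, so no test is given.

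**Figure D4:**
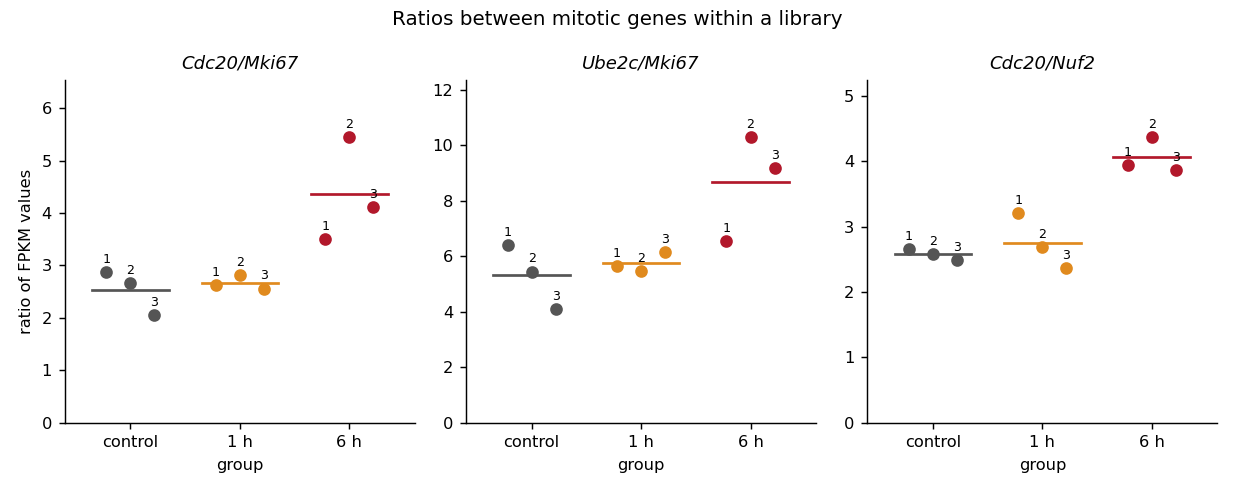
Ratios of FPKM values of Cdc20 to Mki67, Ube2c to Mki67 and Cdc20 to Nuf2 within each library (points, with the replicate number) and their group means (bars). The 6 h points of Cdc20 to Nuf2 lie between 3.86 and 4.37, above the control points at 2.49 to 2.66 and the 1 h points at 2.36 to 3.2.

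Transcript length moved with the libraries as well. In the deposited table the longest transcript is 930 bp for Ube2c, 1784 bp for Cdc20, 2405 bp for Nuf2, 10075 bp for Mki67 and 11130 bp for Cenpf. Over the 38 genes Spearman's rho between length and the log2 change was -0.33 at 6 h against control and -0.51 at 6 h against 1 h, beside -0.38 and -0.33 over all 11460 genes, and 0.22 at 1 h against control beside -0.01. Library by library, rho between length and a gene's deviation from its own mean was -0.42, -0.30 and 0.59 in control replicates 1, 2 and 3, 0.44, 0.59 and 0.14 at 1 h, and 0.40, -0.62 and -0.53 at 6 h for the 38 genes. Over all genes it was -0.22, -0.08 and 0.42 in control cells, 0.16, 0.22 and 0.06 at 1 h, and 0.17, -0.47 and -0.23 at 6 h. Genes are not independent of each other, so these are descriptions. The part of transcript length in the relative levels was not tested.

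How closely the genes followed each other was measured over the 9 libraries. The Pearson correlation of a gene's log2 level with the mean of the 38 was 0.894 for Anln at the lowest, 0.977 at the median and 0.999 for Kif23 at the highest, and 32 of 38 were above 0.95. Of the other 11422 tested genes 63 were above 0.95, 0.552%. Outside the lists used here, genes close to the mean of the 38 included Tacc3 (0.993), Ckap2l (0.992), Knstrn (0.991), Spag5 (0.99), Stmn1 (0.984), Asf1b (0.984), Cdca2 (0.979), Cep55 (0.979) and Kif18b (0.977). Tacc3, a spindle protein, had 22.4, 31.3 and 12.3 FPKM in control cells, 15, 21.1 and 13.2 FPKM at 1 h, and 8.57, 20.5 and 21.5 FPKM at 6 h, in the library order of the 38 genes. The points share their libraries, and a gene's own level is part of the mean it is set against.

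Other genes of the cell cycle were read from lists that do not overlap the 38, and 0 genes of any of these 8 lists were called in any comparison. Their counts of negative changes stand beside 76.2% of all genes at 1 h and 60.1% at 6 h against control. The medians over all genes were -0.17 and -0.06. Of the 12 genes that control mitotic transcription, 10 had a negative change at 1 h and 8 at 6 h against control, with medians of -0.17 and -0.15. Foxm1, singled out after its values were seen, had 11.2, 17.8 and 6.12 FPKM in control cells, 7.83, 9.76 and 5.83 FPKM at 1 h, and 3.89, 7.17 and 9.5 FPKM at 6 h, and a correlation of 0.963 with the mean of the 38. Mybl2, which encodes B-Myb and was singled out likewise, had a correlation of 0.956. Rbl1 had 0.832, and Nfyc, Lin9 and Lin54 had 0.668, 0.58 and 0.533. Correlations of Lin37, Nfyb, Rbl2, Nfya and Lin52 were negative, from -0.143 for Lin37 to -0.457 for Lin52. E2f4, the most abundant of the list, did not share the pattern (correlation of -0.03): it had 30.2, 32.6 and 28.8 FPKM in control cells, 29.5, 26.6 and 23.5 FPKM at 1 h, and 38.4, 35.1 and 34 FPKM at 6 h.

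Among 10 regulators of CDK1, 10 had a negative change at 1 h (median -0.40) and 9 at 6 h (median -0.30) against control. Cks1b, a small CDK-binding subunit, had 73.2, 99.8 and 41.4 FPKM in control cells, 45.6, 59.8 and 38.3 FPKM at 1 h, and 31.7, 46.3 and 68.5 FPKM at 6 h. Of 16 genes of the anaphase-promoting complex and its partners, 16 were negative at 1 h (median -0.17) and 8 at 6 h (median 0.00). Ube2s, the chain-elongating enzyme of that complex, had a change of -0.34 ± 0.29 at 1 h and -0.01 ± 0.29 at 6 h. For 24 other kinetochore and checkpoint genes the medians were -0.25 with 22 negative at 1 h and -0.17 with 19 negative at 6 h, and for 15 condensin, cohesin and separase genes -0.15 with 14 negative and -0.29 with 15 negative. Zwint had -0.25 ± 0.15 at 1 h and -0.13 ± 0.15 at 6 h, and Pttg1, securin, had -0.44 ± 0.49 and -0.38 ± 0.49.

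The 26 DNA replication genes, which are read in S phase, had medians of -0.21 with 24 negative at 1 h and -0.14 with 25 negative at 6 h. Their mean log2(FPKM + 1) was highest in control replicate 2, at 4.39, and lowest in 6 h replicate 1, at 2.98, which are the highest and lowest libraries of the mitotic genes too. Pcna, the polymerase clamp, had a change of -0.25 ± 0.31 at 1 h and -0.11 ± 0.31 at 6 h. Of 12 tested G1 cyclins and E2F factors, 12 were negative at 1 h (median -0.34) and 11 at 6 h (median -0.30), and Cdk4 had -0.10 ± 0.28 and -0.01 ± 0.28. The 8 CDK inhibitors had medians of -0.19 with 6 negative and -0.05 with 5 negative. Cdkn1a, p21, had 175, 131 and 233 FPKM in control cells, 232, 246 and 220 FPKM at 1 h, and 223, 143 and 212 FPKM at 6 h, with a change of 0.41 ± 0.24 at 1 h (limma adjusted p = 0.521).

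**Figure D5:**
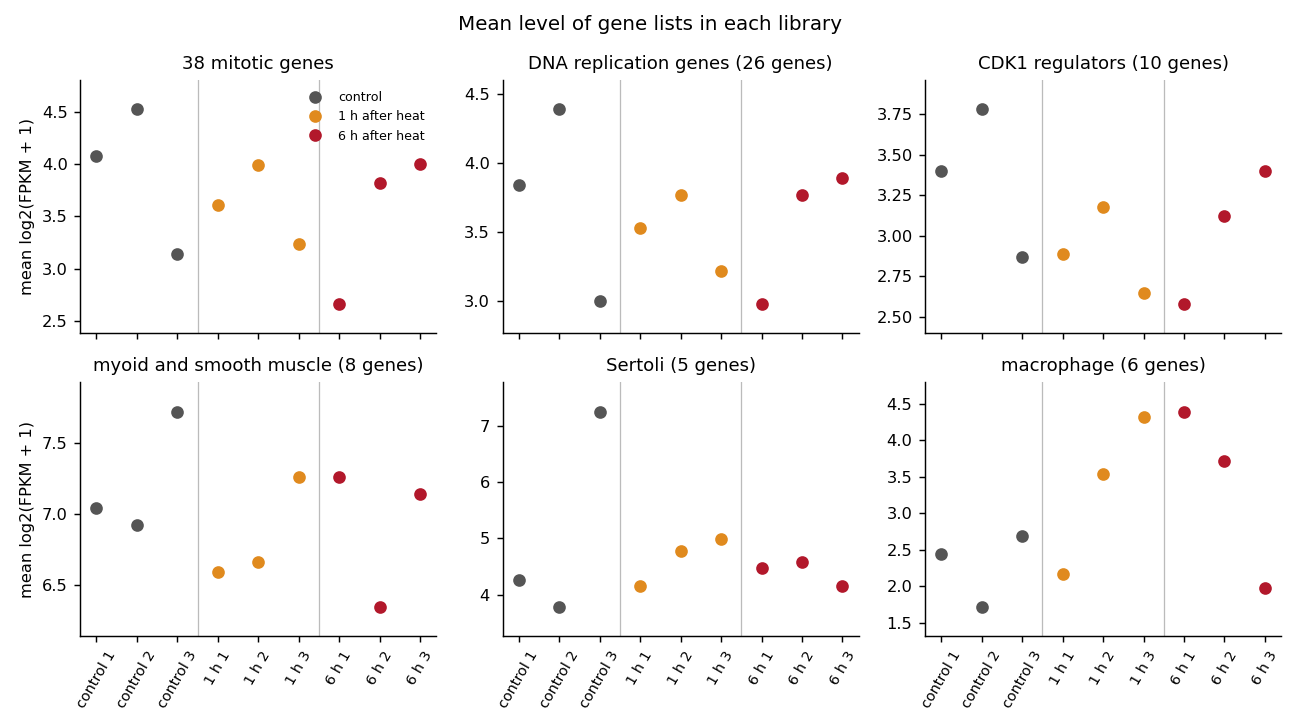
Mean log2(FPKM + 1) in each library (points, coloured by group) of the 38 mitotic genes, of the DNA replication and CDK1 regulator lists, and of marker lists of myoid and smooth muscle, Sertoli cells and macrophages. The replication genes share the highest library of the mitotic genes, and their lowest, 6 h replicate 1, is nearly level with control replicate 3. The means of the myoid and macrophage lists are highest within each group in the library where the mitotic genes are lowest.

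Some cell type markers ran opposite to the mitotic level between replicates, and others did not. In each group the replicate with the lowest mitotic level (control 3, 1 h replicate 3 and 6 h replicate 1) had the highest mean level of the 8 myoid and smooth muscle markers, 7.72 in control, 7.26 at 1 h and 7.26 at 6 h on the log2(FPKM + 1) scale, against 6.92 to 7.04, 6.59 to 6.66 and 6.35 to 7.14 in the other replicates. Myh11, smooth muscle myosin, singled out after its values were seen, had 15.8, 27.5 and 48.8 FPKM in control cells, 13.9, 10.8 and 41.9 FPKM at 1 h, and 35.9, 8.41 and 11.9 FPKM at 6 h. Summed over the list, myoid markers had 3670 to 4425 FPKM in control cells, 3545 to 3705 FPKM at 1 h, and 3395, 3142 and 4632 FPKM in 6 h replicates 1, 2 and 3. The sum is led by Tagln, Acta2 and Tpm2, whose correlations with the mean of the 38 were 0.0897, 0.367 and 0.396, and at 6 h it was highest in replicate 3, where the mitotic level was highest too.

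The same 3 replicates were highest in their groups for the macrophage list, whose 8 genes summed to 50.8, 30.6 and 83.4 FPKM in control cells, 37.7, 176 and 260 FPKM at 1 h, and 268, 207 and 38.1 FPKM at 6 h. Lyz2 and Cd68 led that list. Sertoli markers summed to 351, 287 and 3100 FPKM in control cells, 247, 353 and 536 FPKM at 1 h, and 497, 488 and 388 FPKM at 6 h, with Amh and Fshr below 1 FPKM in every library. The Sertoli sums were thus also highest in these 3 replicates, at 6 h by little. The mean log2(FPKM + 1) of the Sertoli list at 6 h was 4.47 in replicate 1 and 4.59 in replicate 2. Leydig markers summed to 910 to 2138 FPKM in control cells, 872 to 2030 FPKM at 1 h and 1400 to 2031 FPKM at 6 h, and Cyp17a1, Hsd17b3 and Lhcgr stayed below 1 FPKM. The lowest Leydig sum in control cells was that of replicate 3. Endothelial markers, led by Cdh5 and Emcn, summed to 41.5 to 103 FPKM in control cells, 31.8 to 58.3 FPKM at 1 h and 34.9 to 63.3 FPKM at 6 h. Fibroblast markers, led by Col1a2 and Col1a1, summed to 797 to 1216 FPKM, 1519 to 1998 FPKM and 909 to 2490 FPKM in the same order of groups. Germ-cell markers, led by Uchl1 and Ddx4, summed to 22.3 to 32.8 FPKM, 9.79 to 22.8 FPKM and 16.9 to 25.7 FPKM. Sums of the Leydig, endothelial, fibroblast and germ-cell lists were not highest in the 3 replicates with the lowest mitotic level in all groups. No gene of these 7 lists was called in any comparison. The part of cell composition in the mitotic level of a library was not tested.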

How the data were processed

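The 38 genes and all gene lists were chosen with earlier results of these data known. Per the file headers, the deposited table holds FPKM values per library, written to 2 decimals, and the authors' log2 fold changes and q-values from DEGseq. RSEM 1.2.12, HISAT2 2.0.4, Bowtie2 2.2.5 and mm10 are listed in the submitters' processing notes, without roles. FPKM are relative, so more of one transcript means lower values for the rest. Every per-sample column matched a label.

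Depth was estimated from low values of transcripts of 400 to 1200 bp, as FPKM steps worth 1 read: 86.9% to 90.9% of them lay within 0.2 of a whole read, against 40% by chance. Whether other values could be turned into whole reads was not tested, and limma on log2 values was the test used.

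The 11460 genes reaching 1 FPKM in 3 or more of 9 libraries were tested on log2(FPKM + 1) with limma 3.58.1 in R 4.3.3 (eBayes with trend), all 9 libraries in 1 fit of 3 group means, two-sided, without a replicate block. The code was tested on simulated data. A fold change on log2(FPKM + 1) understates the change of low genes. Deviations of same-numbered replicates correlated at 0.194, 0.149 and 0.262 between 1 h and control, all above 0.1, at -0.178, 0.0406 and 0.0143 between 6 h and control, and at -0.269, -0.104 and -0.35 between 6 h and 1 h. The labels do not say that numbers pair libraries. Libraries of different numbers were not compared in this way, so these correlations do not settle whether numbers pair control and 1 h libraries.

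Per-library values are printed for the 2 members of each role with the highest mean level and for those with the largest and smallest change in each comparison. Of other lists, the most abundant gene is named, or 2 for cell types, and, of the 10 genes most like the mean of the 38, all but 1, which is not reported here. Exceptions are stated. Tables were handled with pandas 2.3.3 and scipy 1.17.1 in Python 3.11.15. Promoters came from RefSeq GRCm38.p6.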

Additional observations from a re-analysis of the deposited data

How the results depend on the processing

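Under the other pseudocount (0.1), other filters on low values, median-of-ratios scaling, quantile normalization, no variance trend, a replicate block, only the libraries compared, and leaving out each of the 9 libraries in turn, 0 of the 38 genes were called by limma in any comparison. The replicate block left the median changes at -0.32, -0.42 and -0.16 (1 h against control, 6 h against control, 6 h against 1 h) and changed no call. A paired fit of only the libraries compared, added after the data were seen, also called 0 of the 38. At 1 h against control their lowest limma adjusted p in it was 0.254, while it called 50 of all 11210 genes tested. There 5 of the 38 had an unadjusted limma p below 0.05. The count over all genes at that threshold was not taken, so the 5 cannot be read as a result about the 38. Leaving out a library moved the median of the 38 between -0.72 and -0.01 at 1 h, -0.81 and -0.01 at 6 h, and -0.41 and 0.28 at 6 h against 1 h. Scaling turned the sign at 1 h against control for Prc1 (0.10 by median of ratios, 0.09 by quantiles), Top2a (0.04 by each) and Tpx2 (0.00 by median of ratios), and at 6 h against 1 h for Plk1 (-0.05 and -0.01) and Birc5 (-0.09 and -0.07). Leaving out a library turned the sign of these named genes, given with the range of their log2 changes: at 1 h against control Prc1 (-0.49 to 0.26), Top2a (-0.57 to 0.17), Ccnb1 (-0.89 to 0.03), Ccna2 (-0.90 to 0.02), Kif2c (-0.81 to 0.02), Tpx2 (-0.51 to 0.09) and Cenpa (-0.71 to 0.07). At 6 h against control they were Cdc20 (-0.54 to 0.40), Ube2c (-0.64 to 0.39), Aurka (-0.55 to 0.14), Cdca8 (-0.66 to 0.20), Prc1 (-0.68 to 0.11), Plk1 (-0.78 to 0.17), Kif20a (-0.80 to 0.11), Kif2c (-0.88 to 0.20), Tpx2 (-0.60 to 0.12) and Cenpa (-0.90 to 0.04). At 6 h against 1 h they were Kif20a (-0.38 to 0.46), Kif2c (-0.43 to 0.55), Tpx2 (-0.28 to 0.28), Prc1 (-0.45 to 0.18), Spc25 (-0.45 to 0.39), Racgap1 (-0.29 to 0.30), Plk1 (-0.20 to 0.60), Aurka (-0.09 to 0.56), Birc5 (-0.33 to 0.50), Cdca8 (-0.13 to 0.59), Ccnb1 (-0.53 to 0.31), Ccna2 (-0.45 to 0.30), Cenpa (-0.43 to 0.26), Anln (-0.53 to 0.03), Top2a (-0.49 to 0.12) and Ube2c (-0.12 to 0.72). The most negative values at 1 h and 6 h against control came without control replicate 3, and the highest came without control replicate 2 at 1 h and without 6 h replicate 1 at 6 h. What depth does to these calls was not tested.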

Other observations

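Some genes ran opposite to the 38 mitotic genes over the libraries. Outside the lists used here, the lowest Pearson correlations with their mean log2 level were those of Slc2a10 (-0.935), Sorcs2 (-0.912), Galnt16 (-0.909), Cd59b (-0.894) and Dbn1 (-0.893). Dbn1, the actin-binding protein drebrin, had 57.5, 42.7 and 82.4 FPKM in control replicates 1, 2 and 3, 49.7, 55.7 and 76 FPKM at 1 h, and 88.5, 60.1 and 61.7 FPKM at 6 h. Galnt16, a glycosyltransferase, had 3.91, 2.99 and 9.64 FPKM in control cells, 7.52, 3.99 and 17.1 FPKM at 1 h, and 14, 5.92 and 3.19 FPKM at 6 h. Both were highest in the library of each group where the mitotic genes were lowest.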
